A study of Rattus norvegicus with 9 samples.

Results

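Rat adrenal zona glomerulosa cells that had been exposed to angiotensin II (Ang II) were compared with untreated cells of the same isolations, by the transcripts each held 2 h later. The comparison uses 6 of the 9 arrays of the series: the 3 arrays of Ang II tubes and the 3 arrays of control tubes, chosen by their titles and paired by experiment number. The zona glomerulosa is the outermost layer of the adrenal cortex. Its cells were freshly isolated by enzymatic and mechanical dispersion, and each of 3 independent preparations gave 1 tube per group, so that the tubes of a pair hold the same isolated cells. The control tubes were incubated for 2 h at 37 °C under 5% CO2 in culture medium with 0.5% fatty acid free albumin, and the Ang II tubes in the same way with Ang II at 100 nM. The remaining 3 arrays, of cells given raised potassium, enter only an alternative fit of all 9. The labels used here name no strain, sex, age or number of animals per preparation. All 6 arrays were Affymetrix Rat Genome 230 2.0 chips, which carry several short probes per transcript, grouped into probe sets. Each array gave 1 linear signal per probe set, in arbitrary units that are not calibrated between probe sets. Of 31042 probe sets that were not array controls, 20826 carried a single gene symbol, and these stood for 14217 genes.

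Ang II is the peptide end product of the renin-angiotensin system and, beside raised potassium and ACTH, a main stimulus of aldosterone secretion. In the glomerulosa cell it binds the type 1 receptor, which couples through Gq to phospholipase C, so that inositol trisphosphate releases stored calcium while diacylglycerol activates protein kinase C. Calcium, calmodulin-dependent kinases and MAP kinases then reach the nucleus, where early response genes are switched on, many of which encode transcription factors or proteins that shut the signal off again. Rats have a pair of type 1 receptor genes, Agtr1a and Agtr1b.

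The identity of the cells was read from marker lists. The summed signal of 16 measured zona glomerulosa markers lay between 60107 and 64113 in the control tubes and between 58482 and 64264 in the Ang II tubes. Hsd3b1, which also stands in the list of steroid hormone synthesis, was the brightest of these markers and weighed most in the sum. Its control mean was 25199.5. Among the other markers Dab2 had a control mean of 11699.9 ± 285 (SD, n = 3) and Vsnl1 of 6163 ± 754. The aldosterone synthase gene Cyp11b2 was not analysed here because no probe set is named for it alone. Genes of other cell types were present as well: the fasciculata gene Akr1b7 at 28312 ± 1029.8, Hbb of red blood cells at 17735 ± 1431, Kdr of endothelium at 7624 ± 731, Lyz2 of macrophages at 6732 ± 1362, Col1a1 of fibroblasts at 2254 ± 176 and Th of the medulla at 735 ± 67.0. Cyp17a1, which marks the fasciculata in other species and is scarcely expressed in the rat adrenal, lay between 6.01 and 20.6 in the control tubes. For each of the 10 marker lists the range of summed signals in the Ang II tubes overlapped that in the control tubes. Of all their measured genes only Nr4a2, which is itself an early response gene, passed limma's test below. Wnt4 of the glomerulosa list gave 5316, 5106 and 5655 in the control tubes and 4480, 4332 and 4049 after Ang II. Its groups did not overlap, but its change of -0.32 ± 0.08 (log2, SE) did not pass that test (adjusted p = 0.069). In such bulk RNA a change in the number of cells of a type cannot be told apart from a change in RNA per cell. Some genes differed between preparations: Cyp11b1, which makes corticosterone, gave 5174, 1839 and 2895 in the control tubes of preparations 1, 2 and 3, and Frzb gave 5109, 2773 and 3191, while Akr1b7 of the same fasciculata list gave 29477, 27936 and 27524. These genes were picked after their values were seen. The comparison within preparations takes such differences out. The control array of preparation 2 stood apart in its dim probe sets, with a median signal of 172.9 over all probe sets against 128.4 to 143.6 on the other 5 arrays.

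Ang II left most probe sets uncalled, and most of those called were higher. Large increases were seen in the plasminogen activator inhibitor gene Serpinb2, the stromelysin genes Mmp3 and Mmp10, the cornified envelope gene Sprr1a, the neuropeptide gene Nmu, the zinc-finger repressor gene Giot1, the antioxidant gene Srxn1 and 1 probe set of the DNA repair gene Fancc. Of the 31042 probe sets, 339 (1.09%) passed limma's test at an adjusted p of 0.05, 267 of them higher after Ang II (0.86%) and 72 lower (0.232%). The higher ones stood for 187 named genes and the lower ones for 51, and 74 of the 339 had no single symbol. Most shifts were modest: over 2-fold changes were seen in 35 of the increases and 5 of the decreases, while 141 of the increases were of 1.5-fold or less. The median log2 fold change was 0.57 among the higher and -0.51 among the lower probe sets, against -0.06 over all probe sets. Called probe sets were bright, with median control signals of 1515 for the higher and 1468 for the lower ones against 145.7 for all. The groups did not overlap, in that every Ang II array lay on the same side of every control array, for 264 of the 267 and 64 of the 72, against 13.1% of all probe sets. Over all probe sets the balance was the other way: 1469 were higher and 1885 lower at an unadjusted p under 0.05, and among those whose groups did not overlap 1665 were higher and 2403 lower.

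All 339 called probe sets had the same direction in the 3 preparations. They were selected by a paired test on these same preparations, which favours such agreement. The called probe sets with a higher signal had a median log2 fold change of 0.53 in preparation 1, 0.62 in preparation 2 and 0.56 in preparation 3, and the lower ones of -0.48, -0.49 and -0.54. The medians over all probe sets were -0.02, -0.12 and -0.04. The lowest was that of preparation 2, whose control array had the highest median signal, 172.9, and the cause was not tested. Scaling the arrays to a common median moved the median of all probe sets from -0.06 to 0.05 on the log2 scale. With this scaling 273 probe sets were called higher and 17 lower, a share of 94.1% higher against 78.8%. Of these 290, 238 were among the 339, so the probe sets called changed as well. Named increases such as Junb, Egr1 and Scarb1 lost their calls. The number of decreases depended on the scaling more than that of increases. Without preparation 2 the test called 120 probe sets, 116 of them among the 339, and without preparation 1 or 3 it called 504 and 533. Of the genes named here that passed, 53 lost the call without preparation 2, with adjusted p-values there from 0.0511 to 0.311, 14 without preparation 1 (0.054 to 0.168) and 7 without preparation 3 (0.0511 to 0.123). All of these kept the sign of their change, and they are named beside their results. The 3 fits also differed in the estimated prior, which had 7.97 degrees of freedom without preparation 2 and was infinite without preparation 1 or 3. The counts of lost calls therefore do not compare the preparations alone, and the same holds for each lost call named below. With the shared prior spread of all probe sets taken as 1 value for dim and bright probe sets, in place of a trend with signal, no probe set passed limma's test, and 2387 had an unadjusted p under 0.05.

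**Figure D1:**
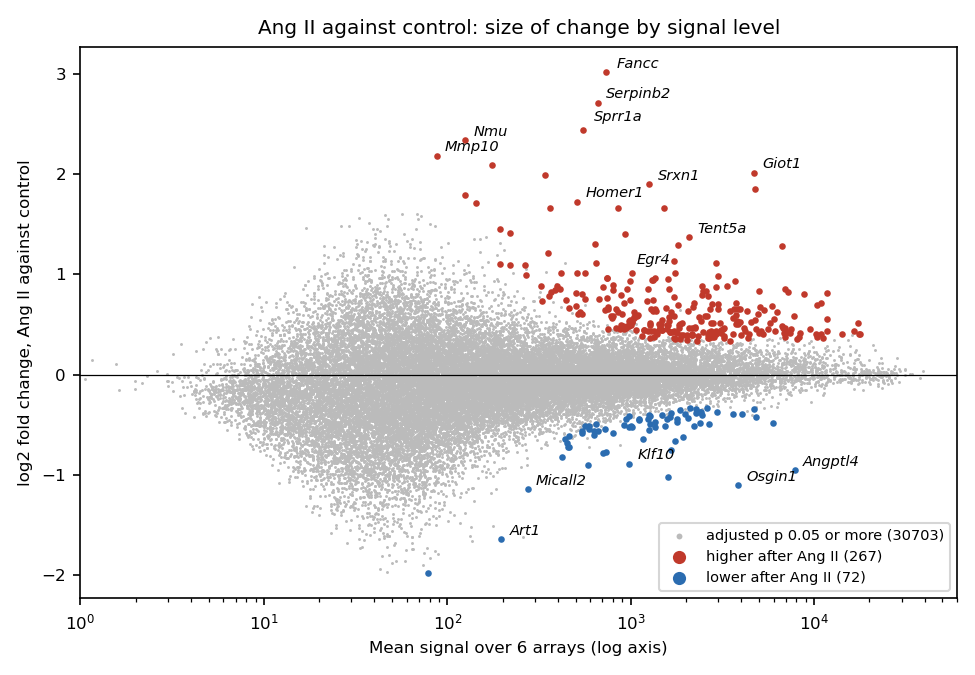
Log2 fold change after Ang II (vertical axis, mean of 3 preparations) against the mean signal of the 6 arrays (horizontal axis, log scale) for each of the 31042 probe sets. The 267 higher and 72 lower probe sets that passed limma's test are coloured. The coloured points lie mostly in the brighter part of the range, and the largest of them are above 0.

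Genes of pericellular proteolysis and coagulation were among the most changed, and each member of the list that passed was higher. Of 42 measured genes, 6 rose (Serpinb2, Mmp10, Mmp3, F3, Plaur and Plau) and 0 fell in limma's test, against 1.22% higher and 0.352% lower of the 14217 genes when each is read from its brightest probe set (1.58% in either direction), the shares against which the counts of all lists here are to be read. At an unadjusted p under 0.05, 11 members were higher and 0 lower. Of all 31042 probe sets, 1469 were higher and 1885 lower at this limit in limma's test. The unadjusted counts of all lists here are to be read against these, as no such count was made with 1 probe set per gene. The median of the list was 0.06, against -0.05 over all 14217 genes. All lists here were written with earlier results of these data known, so their counts are a description and not a test. The shares over all genes were not matched for signal, and called probe sets were mostly bright. Serpinb2 encodes plasminogen activator inhibitor 2, which blocks the proteases that turn plasminogen into plasmin. Its signal was 146, 198 and 147 in the control tubes of preparations 1, 2 and 3 and 1170.1, 1037 and 1256 in the Ang II tubes of the same preparations. No Ang II tube came near a control tube, and the fold change was 6.55 (log2 2.71 ± 0.15, SE; adjusted p = 4.8e-07). Plau, the urokinase-type plasminogen activator that Serpinb2 inhibits, and Plaur, its receptor on the cell surface, rose less. Their changes were 0.45 ± 0.09 and 0.58 ± 0.09 on the log2 scale. A dimmer probe set of each did not pass, at 0.14 for Plau and -0.18 for Plaur.

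The stromelysins Mmp3 and Mmp10 are secreted metalloproteinases, both encoded on rat chromosome 8. Mmp3 gave 386, 733 and 422 in the control tubes and 1084, 1581 and 1385 in the Ang II tubes, a 2.65-fold rise (log2 1.41 ± 0.11; adjusted p = 1.6e-05). Mmp10 was dim, at 27.1, 21.2 and 14.8 in the control tubes and 152, 195 and 114 after Ang II. Its groups were far apart, but its control values lie near the pseudocount of 16 added before the logarithm, which makes the fitted change of 2.18 ± 0.41 (adjusted p = 0.018) an understatement of the ratio of signals. F3 encodes tissue factor, the trigger of the extrinsic coagulation pathway. It gave 372, 407 and 425 in the control tubes and 1021, 699.7 and 974 in the Ang II tubes, and rose 2.16-fold (log2 1.11 ± 0.13). The inhibitor of metalloproteinases Timp3 has 4 probe sets, and it was looked at after its values were seen: the brightest was at 0.10 ± 0.09 and did not pass, while another was at 0.38 ± 0.07 and passed (adjusted p = 0.022). The calls of Mmp10 and Plau ended when preparation 2 was left out, and that of Plau also without preparation 1.

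**Figure D2:**
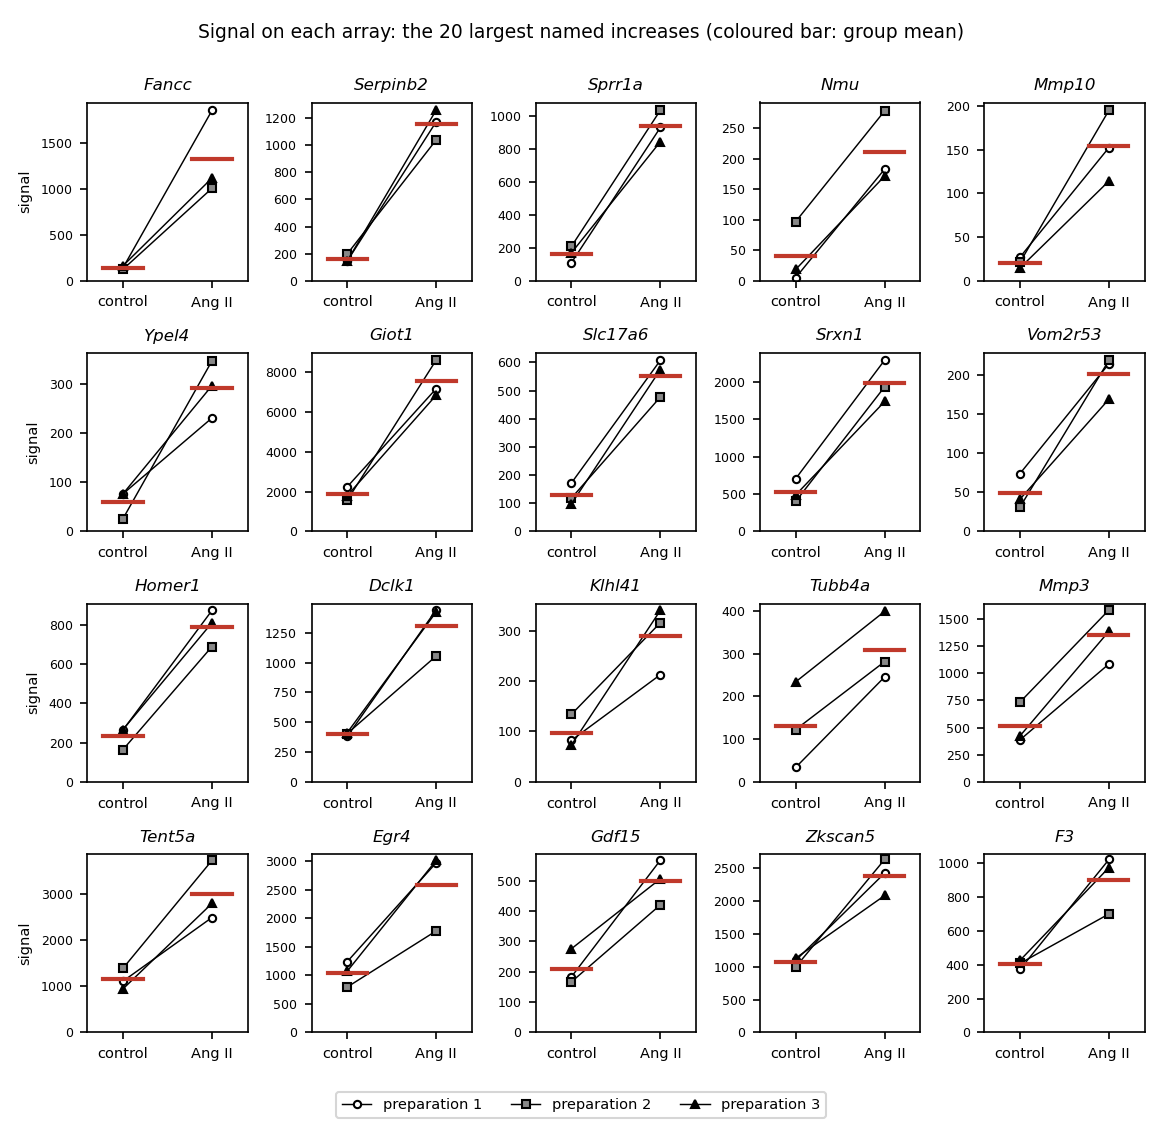
Signal on each array (vertical axes, linear, arbitrary units) in control and Ang II tubes for the 20 genes with the largest increases, with a line joining the tubes of 1 preparation and a bar at each group mean. In every panel the 3 lines rise, and the panels differ in scale, from Mmp10 below 200 to Giot1 above 6000.

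Some of the largest increases were of genes with no common role. Sprr1a, a small proline-rich protein first known from the cornified envelope of skin and also from injured nerve and heart, gave 111, 210.2 and 171 in the control tubes and 933, 1038 and 847 after Ang II, a 5.44-fold rise (log2 2.44 ± 0.16; adjusted p = 2e-06). Giot1 encodes a KRAB zinc-finger protein first described as gonadotropin-inducible in the ovary and known to repress transcription by steroidogenic nuclear receptors. It was bright already in the control tubes, at 2237, 1563 and 1792, and gave 7161, 8597 and 6833 after Ang II. No tube of either group came near the other group, and the fold change was 4.04 (log2 2.01 ± 0.11; adjusted p = 4.8e-07). Fancc belongs to the Fanconi anaemia complex of DNA cross-link repair. Its brightest probe set gave 143, 127 and 165 in the control tubes and 1856, 1009 and 1119.9 in the Ang II tubes, an 8.09-fold rise (log2 3.02 ± 0.17). The other probe sets of Fancc, at 1.31 ± 0.30 (adjusted p = 0.06) and 0.68 ± 0.29 (adjusted p = 0.4), were higher in sign but did not pass, so the size of the change differed between the probe sets of Fancc.

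Slc17a6, the vesicular glutamate transporter VGLUT2 of glutamatergic neurons, gave 172, 118 and 98.1 in the control tubes and 608, 477 and 575 in the Ang II tubes (log2 1.99 ± 0.19; adjusted p = 6.4e-05). Its groups did not overlap. Dclk1, a doublecortin-like kinase that binds microtubules, gave 381, 405 and 413 without and 1441, 1055 and 1424 with Ang II (log2 1.66 ± 0.12). Of the 4 probe sets of Dclk1 only this brightest one passed, and the others were at 0.54, 0.81 and 0.51. Tent5a, a non-canonical poly(A) polymerase that lengthens the tails of some messenger RNAs, rose by 1.37 ± 0.09 at its brightest probe set. It gave 1110.5, 1391 and 944 without and 2491, 3728 and 2796 with Ang II. Dimmer probe sets of Tent5a were at -0.25 and 0.16 and did not pass. Zkscan5, a zinc-finger transcription factor gene, rose by 1.13 ± 0.10. Ypel4 of the yippee-like family rose by 2.09 ± 0.35, Klhl41 of the kelch family by 1.45 ± 0.27 and Vom2r53 by 1.79 ± 0.36. These last were weaker calls, with adjusted p-values of 0.0076, 0.015 and 0.024, and each ended when preparation 2 was left out, that of Klhl41 also without preparation 3. Vom2r53 is a member of the vomeronasal receptor family, whose many similar copies could share probes, and its value is uncertain for that reason. For Tubb4a, a beta tubulin, 1 dim probe set rose by 1.41 ± 0.30 (adjusted p = 0.04) while its brightest was at 0.13, and the call ended when preparation 1 or 2 was left out.

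Promoters of the called genes were searched for letters bound by the transcription factors of calcium, cyclic AMP and MAP kinase signalling. RefSeq promoters of assembly GRCr8, from 250 bases before to 50 after the transcription start, were at hand for 156 genes called higher, 44 called lower and 11734 genes with a probe set. The AP-1 motif TGANTCA, the site of Fos and Jun dimers, was found in 24 of the 156 (15.4%), in 4.55% of the lower genes, in 6.02% of the genes with a probe set and in 8.04% of all 27457 promoters of the table. The stretches below are shown because they belong to 5 of the largest increases and hold the motif before the start; capitals mark the AP-1 letters. They lie on the plus strand at chr8:12925180-12925246 (Mmp3), chr8:12974616-12974682 (Mmp10), chr14:32198753-32198819 (Nmu) and chr3:161064730-161064776 (Srxn1), and on the minus strand at chr2:180752711-180752797 (Sprr1a), and each is written 5′ to 3′ along its gene.
Mmp3: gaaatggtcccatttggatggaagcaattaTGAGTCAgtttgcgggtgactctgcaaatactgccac
Mmp10: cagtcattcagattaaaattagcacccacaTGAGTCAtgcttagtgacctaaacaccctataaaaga
Sprr1a: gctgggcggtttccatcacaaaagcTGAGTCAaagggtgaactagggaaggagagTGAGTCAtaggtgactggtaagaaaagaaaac
Nmu: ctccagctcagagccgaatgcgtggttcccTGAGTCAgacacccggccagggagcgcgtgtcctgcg
Srxn1: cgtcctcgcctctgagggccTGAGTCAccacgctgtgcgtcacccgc
Each stretch shown holds the same 7 letters, TGAGTCA, on the strand of its gene. The letters differ in others not shown: TGATTCA in Serpinb2, TGACTCA in Ypel4, and both TGAGTCA and TGATTCA in Dclk1. TGAGTCA stands at 2 places in Sprr1a and also at 2 in Srxn1. The second match of Srxn1 begins at -5 from the start, runs across it and is not shown.

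The palindromic cyclic AMP response element TGACGTCA, to which CREB and CREM bind, was found in 11 of the 156 higher genes (7.05%), in 4.55% of the lower genes, in 2.93% of the genes with a probe set and in 2.00% of all promoters. Its shorter core TGACG, which the palindrome and some AP-1-like sequences contain, was found in 44.2%, 20.5%, 30.1% and 23.0% in the same order. The CArG box, the site of serum response factor, was found in 3.85%, 0.00%, 1.47% and 1.77%. For the Crem and Dusp1 promoters, at chr17:58984716-58984773 and chr10:17184699-17184766 on the plus strand, capitals mark the cyclic AMP response element; they are shown because these are feedback genes of cyclic AMP and MAP kinase signalling. For Egr1 and Dusp5, at chr18:26736948-26737029 and chr1:262543667-262543736 on the plus strand, they mark CArG boxes, which are shown because these early genes carry 2 each.
Crem: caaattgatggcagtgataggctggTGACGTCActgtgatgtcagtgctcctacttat
Dusp1: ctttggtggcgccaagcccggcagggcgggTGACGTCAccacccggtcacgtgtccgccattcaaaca
Egr1: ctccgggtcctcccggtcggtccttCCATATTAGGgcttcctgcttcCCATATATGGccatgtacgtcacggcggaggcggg
Dusp5: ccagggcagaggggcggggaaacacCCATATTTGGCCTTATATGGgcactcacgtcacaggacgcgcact
Of the other motifs, searched on both strands as all were, the antioxidant element TGACNNNGC was found in 22.4% of the higher genes, 9.09% of the lower genes, 15.2% of the genes with a probe set and 13.1% of all promoters. The EGR site GCGTGGGCG was found in 0 of the 156 higher genes and 1.05% of the genes with a probe set, and the Nr4a site AAAGGTCA in 1 of the 156, Giot1 (0.641%), and in 1.19%. These shares are descriptions without a test, and a match is not a bound site.

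Early response transcription factors formed the list with the most increases. Of 47 measured, 16 rose, 1 fell and 30 did not pass, and the median of the list was 0.25 against -0.05 over all 14217 genes. At an unadjusted p under 0.05, 28 were higher and 2 lower. The 3 Nr4a orphan receptors, immediate early nuclear receptors that drive steroidogenic promoters in adrenal cells, all rose. Nr4a1 gave 6084, 4906 and 8507 in the control tubes and 10119, 10724 and 12499.6 after Ang II (log2 0.80 ± 0.10; adjusted p = 0.00049). The brighter probe set of Nr4a2 gave 1529, 1536 and 2343 without and 2642, 3544 and 3099.8 with Ang II (log2 0.79 ± 0.11), and Nr4a3 gave 7375, 5621 and 5732 without and 9248, 8029 and 10792 with Ang II (log2 0.58 ± 0.10). For each of these receptors the lowest Ang II tube lay above the highest control tube. The calls of Nr4a2 and Nr4a3 ended when preparation 2 was left out.

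Among zinc-finger factors of the Egr family, Egr4 stood out with 1241, 795 and 1074 in the control tubes and 2975, 1780.2 and 3017 after Ang II, a 2.45-fold rise (log2 1.29 ± 0.09; adjusted p = 2e-06). Egr1 and Egr2 rose less, by 0.41 ± 0.08 and 0.53 ± 0.09. Of the AP-1 family Junb rose by 0.46 ± 0.07 and Fosl1 by 0.39 ± 0.08. Fos gave 11527, 10109 and 12599 in the control tubes and 13049, 12604 and 13413 in the Ang II tubes, and its change of 0.20 ± 0.08 did not pass (adjusted p = 0.37). Fos was bright already in the untreated tubes, with a signal above that of its Ang II tubes in none of the preparations. Jun, looked at after its values were seen, gave 0.24 at its brightest probe set (adjusted p = 0.24) and passed at another (0.40 ± 0.08; adjusted p = 0.02). The calls of Egr1, Egr2, Junb and Fosl1 ended when preparation 2 was left out, and that of Egr1 also without preparation 1.

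The other early factors that rose were Csrnp1 (0.82 ± 0.07), a cysteine-serine-rich nuclear protein, the basic leucine zipper repressor Nfil3 (0.68 ± 0.10), the Kruppel-like factors Klf4 (0.52 ± 0.08) and Klf6 (0.40 ± 0.08), the inhibitor of helix-loop-helix factors Id3 (0.51 ± 0.09), Ier2 (0.39 ± 0.07), and Zfp36 (0.38 ± 0.08) and Zfp36l2 (0.55 ± 0.07), which destabilise messenger RNAs with AU-rich tails. Klf10, a TGF-beta-inducible repressor of the same Kruppel-like family, went the other way. Its signal was 1397, 1279 and 1168 in the control tubes and 704, 674 and 673 in the Ang II tubes, and it fell by 1.85-fold (log2 -0.89 ± 0.09; adjusted p = 0.00014). The Ang II tubes of Klf10 were close together, and each lay far under its control. Of the factors that rose, Klf4, Klf6, Nfil3 and Ier2 lost their calls without preparation 2, Klf6, Ier2 and Zfp36 without preparation 1, and Zfp36 without preparation 3. Without preparation 2 the number of called genes in the list dropped from 17 to 7.

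**Figure D3:**
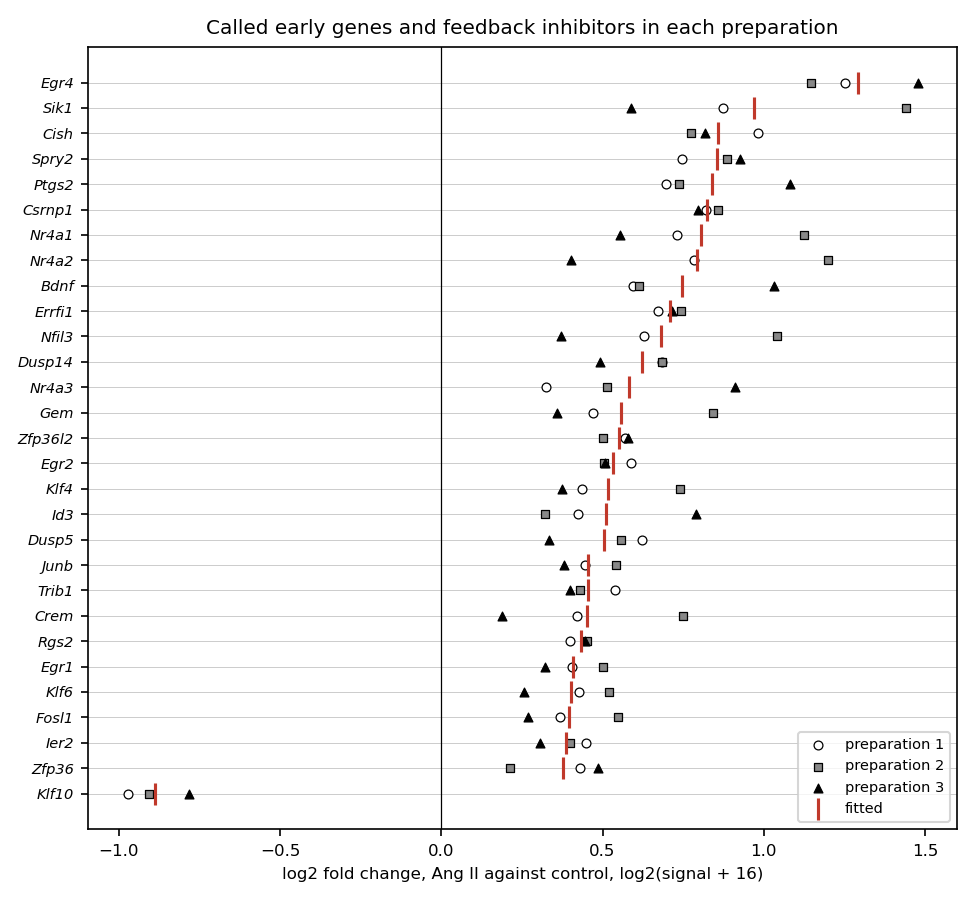
Log2 fold change in each preparation (points, horizontal axis) of early transcription factors, CREB targets and feedback inhibitors that passed limma's test, with the mean of the 3 preparations. All 28 genes with a higher signal lie right of 0 in every preparation, and Klf10 lies left of 0.

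Within these early genes the preparations differed in size. Of the 28 plotted genes that rose, 15 had their largest change in preparation 2, 8 in preparation 3 and 5 in preparation 1, and 16 had their smallest in preparation 3. The medians were 0.58, 0.65 and 0.49 in preparations 1, 2 and 3.

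Genes that CREB and its coactivators are known to drive rose in 9 of 33 cases and fell in 0, with 14 higher and 1 lower at an unadjusted p under 0.05 and a median of 0.12. They include the 3 Nr4a genes. Sik1 encodes the salt-inducible kinase that phosphorylates CREB coactivators and so turns them off. It gave 520.1, 414 and 565 in the control tubes and 966, 1151 and 859 after Ang II (log2 0.97 ± 0.14; adjusted p = 0.0024). Ptgs2, the inducible cyclooxygenase that makes prostaglandin precursors, gave 1815, 2019 and 1471 without and 2953, 3375 and 3129 with Ang II (log2 0.84 ± 0.09; adjusted p = 0.00013). Neither gene's groups overlapped. The neurotrophin gene Bdnf rose by 0.75 ± 0.14 at its brighter probe set, while the dimmer was at -0.20 and did not pass. The small GTPase gene Gem, whose product restrains voltage-gated calcium channels, rose by 0.56 ± 0.09. The regulator of G protein signalling Rgs2 rose by 0.43 ± 0.07. Crem, whose short forms repress CREB targets, has 6 probe sets: 4 rose, by 0.45 to 0.76, and the others were at 0.11 and -0.08. The calls of Sik1, Bdnf, Gem, Rgs2 and the brightest probe set of Crem ended when preparation 2 was left out. Those of Nr4a2 and Nr4a3 ended as well, which left 2 of the 9. The other called probe sets of Crem were not followed.

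Inhibitors that act back on MAP kinase signalling rose in 5 of 23 cases and fell in 0, with 8 higher and 0 lower at an unadjusted p under 0.05, and the list had the highest median, 0.29. Spry2, which inhibits signalling from receptor tyrosine kinases to Ras, gave 5378, 5081 and 4319 in the control tubes and 9042, 9412 and 8228 after Ang II, a 1.81-fold rise (log2 0.85 ± 0.07; adjusted p = 2.4e-05). Errfi1, a cytosolic inhibitor of the EGF receptor, gave 8967, 7705 and 7973 without and 14288, 12903 and 13112 with Ang II (log2 0.71 ± 0.07). Both genes changed by a similar amount in all 3 preparations. Of the dual-specificity phosphatases, which dephosphorylate MAP kinases, Dusp14 rose by 0.62 ± 0.08 and Dusp5 by 0.50 ± 0.08. Dusp6 was at -0.08 ± 0.08 and did not pass. Dusp1 was read differently by its probe sets: the brighter gave 11605, 11971 and 13215 without and 13624, 16030.4 and 14945 with Ang II and did not pass (0.28 ± 0.08; adjusted p = 0.17), and the dimmer gave 1377, 1474 and 1269.6 without and 2049, 2356 and 2299 with Ang II and rose (0.70 ± 0.08; adjusted p = 0.00043). Trib1, a pseudokinase scaffold, rose by 0.46 ± 0.09 at its brightest probe set, while dim ones were at -0.22 and -0.78 and did not pass. The call of Dusp5 ended without preparation 2 and that of Trib1 without preparation 1 or 2.

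Of 15 cytokine signalling inhibitors, Cish, a member of the SOCS family that inhibits signalling to STAT5, was the only member that passed. It gave 901, 799.7 and 925 in the control tubes and 1794, 1378 and 1644 in the Ang II tubes (log2 0.86 ± 0.09; adjusted p = 0.00011). Of 16 RGS proteins, which speed the hydrolysis of GTP by G protein alpha subunits, Rgs2 was the only one that passed, and Rgs4 was at 0.06 ± 0.08. The medians of these lists were -0.02 and 0.01.

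The lists of receptors and enzymes that carry the signal held no calls, and in lists of these sizes a count of 0 is near the 1.58% called over all 14217 genes. Of 20 genes of angiotensin receptors and Gq signalling, 0 passed limma's test, with 0 higher and 4 lower at an unadjusted p under 0.05. The type 1 receptor gene Agtr1a gave 1634, 1661 and 2223 in the control tubes and 1754, 1731 and 2073 in the Ang II tubes (0.02 ± 0.08; adjusted p = 0.96), and Agtr1b gave 2559, 3079.8 and 2708 without and 2302, 2823 and 2930.2 with Ang II (-0.05 ± 0.08; adjusted p = 0.88). Both changes were smaller than their standard errors. Agtrap, which encodes a protein that promotes internalisation of the type 1 receptor, was at -0.50 ± 0.15 (adjusted p = 0.17). A dimmer probe set of Agtrap was at 0.18 ± 0.23. Of 47 genes of calcium and protein kinase signalling 0 passed, with 4 higher and 3 lower at an unadjusted p under 0.05. Of 32 enzymes of inositol phosphate and phosphoinositide metabolism 0 passed (6 higher and 2 lower unadjusted), and of 34 cyclic nucleotide phosphodiesterases and cyclases 0 passed (0 higher and 2 lower unadjusted). The medians of these lists lay between -0.07 and -0.02.

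Of 25 measured genes of steroid hormone synthesis, 1 rose and 0 fell in limma's test, with 4 higher and 3 lower at an unadjusted p under 0.05 and a median of 0.00. The gene that rose was Scarb1, the receptor through which rat adrenal cells take up cholesterol esters from high-density lipoprotein. It gave 5886, 4477 and 6657 in the control tubes and 7519, 7101 and 8647 in the Ang II tubes at its brighter probe set (log2 0.46 ± 0.08; adjusted p = 0.0095), and 0.60 ± 0.08 at the other. Star, whose product moves cholesterol into the mitochondrion, gave 20542, 16584 and 19492 without and 23859, 22825 and 22441 with Ang II. The Ang II tubes of Star all lay above the control tubes, but the change of 0.29 ± 0.09 did not pass (adjusted p = 0.18). Mrap, which carries the ACTH receptor to the cell surface, was at 0.34 ± 0.09 (adjusted p = 0.092). The side-chain cleavage enzyme gene Cyp11a1 was at -0.01 ± 0.09, Hsd3b1 at 0.00 ± 0.09, Cyp21a1 at -0.09 ± 0.08 and Cyp11b1 at 0.08 ± 0.10, none of which passed. Mc2r, the ACTH receptor gene, was not analysed here.

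Of 27 nuclear regulators of steroidogenesis, Giot1 and the transcriptional coregulator gene Cited2 (0.41 ± 0.08) rose and 0 fell, with 3 higher and 4 lower at an unadjusted p under 0.05. Nr5a1, which encodes steroidogenic factor 1, was at -0.07 ± 0.08 and did not pass. In cholesterol synthesis and uptake 2 of 28 genes rose and 1 fell, with a median of 0.10. Idi1, the isomerase that makes the activated isoprenoid unit, gave 4221, 3597 and 3799 in the control tubes and 6347, 6053 and 6184 after Ang II (log2 0.68 ± 0.07; adjusted p = 0.00017), and its other probe set rose by 0.95 ± 0.10. Msmo1, a sterol oxidase, rose by 0.55 ± 0.08. Lipa, the lysosomal acid lipase that frees cholesterol from its esters, fell by 1.27-fold (log2 -0.34 ± 0.07; adjusted p = 0.037). Lipid genes outside the lists, chosen after their values were seen, included the lipid droplet coat gene Plin2 (0.40 ± 0.08), the acyl-CoA synthetase gene Acsl3 (0.50 ± 0.09) and the fatty acid synthase gene Fasn (0.46 ± 0.10), all of which rose. Of the genes of these lists that passed, Scarb1, Cited2, Msmo1 and Lipa lost their calls when preparation 2 was left out, as did Plin2, Acsl3 and Fasn, and Cited2 and Lipa also lost theirs without preparation 1, and Lipa without preparation 3.

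Secreted signals rose in 5 of 66 cases and fell in 1, with a median of -0.04. Nmu encodes the neuropeptide neuromedin U. It gave 5.43, 97.0 and 18.8 in the control tubes and 183, 278 and 171 in the Ang II tubes (log2 2.34 ± 0.42; adjusted p = 0.013). The control values of Nmu were dim and spread widely, and the lowest Ang II tube was still above the highest control tube. Gdf15, a stress-induced member of the TGF-beta family, gave 183, 166 and 276 without and 567, 420.1 and 506 with Ang II (log2 1.22 ± 0.17). Bmp2, a bone morphogenetic protein, rose by 0.51 ± 0.07 at its brighter and 0.81 ± 0.13 at its dimmer probe set, and the lymphatic growth factor gene Vegfc by 0.39 ± 0.08. Angptl4, a secreted inhibitor of lipoprotein lipase, fell. It was bright, at 10942, 8997 and 10884 in the control tubes and 5987, 4089 and 6060.4 in the Ang II tubes, a 1.93-fold fall (log2 -0.95 ± 0.08; adjusted p = 2.1e-05). Gdf15 and Vegfc lost their calls when preparation 2 was left out.

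Among 36 genes of the oxidative stress response, 1 rose and 1 fell by large amounts. Srxn1 encodes sulfiredoxin, which restores overoxidised peroxiredoxins. Its probe set with the smallest p gave 706, 402 and 488 in the control tubes and 2293, 1936 and 1739 after Ang II, a 3.73-fold rise (log2 1.90 ± 0.11; adjusted p = 5e-07). A brighter probe set of Srxn1 rose by 1.28 ± 0.11, and a dim one was at 0.08 ± 0.43. Osgin1, named for its induction by oxidative stress and for growth inhibition, gave 5606, 4745 and 5341 in the control tubes and 2823, 2093 and 2409.6 in the Ang II tubes, a 2.15-fold fall (log2 -1.10 ± 0.07; adjusted p = 2e-06). These genes of the same list moved in opposite directions in every preparation. Hmox1, the inducible haem oxygenase, was at 0.28 ± 0.07 and did not pass (adjusted p = 0.11).

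Genes of growth arrest rose in 4 of 33 cases and fell in 0, with 10 higher and 0 lower at an unadjusted p under 0.05. Phlda1, a pleckstrin homology protein induced by many stimuli, gave 1774, 2094 and 1666 in the control tubes and 3959, 4203 and 3821 after Ang II (log2 1.11 ± 0.07; adjusted p = 2e-06). The polo-like kinase gene Plk2 rose by 0.45 ± 0.07, the cyclin-dependent kinase inhibitor gene Cdkn1a by 0.41 ± 0.07 and Gadd45a, a stress sensor of the growth arrest and DNA damage family, by 0.43 ± 0.09. Of 28 genes of cell proliferation 0 passed limma's test, with 0 higher and 2 lower at an unadjusted p under 0.05. The list of heat shock and folding proteins held 3 increases and 0 decreases among 41 genes, with 10 higher and 1 lower unadjusted. They were the small heat shock protein genes Cryab (0.54 ± 0.07) and Hspb8 (0.42 ± 0.07), and the co-chaperone gene Dnajb4 (0.43 ± 0.07). Of 35 amino acid stress targets of ATF4, Ppp1r15a, which restores translation after stress, rose by 0.49 ± 0.07, and Mthfd2, a mitochondrial folate enzyme, by 0.34 ± 0.07. Eif4ebp1, which holds back the cap-binding factor eIF4E, fell (-0.47 ± 0.08). Without preparation 2 the calls of Cdkn1a, Gadd45a, Hspb8, Dnajb4, Mthfd2 and Eif4ebp1 ended, without preparation 1 that of Mthfd2, and without preparation 3 those of Gadd45a and Mthfd2.

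Control of messenger RNA and translation held 5 increases among 27 genes and 0 decreases, with 10 higher and 1 lower at an unadjusted p under 0.05 and a median of 0.10. Beside Tent5a, Zfp36 and Zfp36l2 these were Cpeb4, which binds cytoplasmic polyadenylation elements, and Eif4e itself. Cpeb4 gave 3274, 2498 and 2716 in the control tubes and 4946, 3775 and 5306 after Ang II (log2 0.72 ± 0.08; adjusted p = 0.00043). Eif4e rose by 0.35 ± 0.07 at its brightest probe set and by 0.90 ± 0.14 at another, while Eif4ebp1, its inhibitor, was among the decreases. The call of the brightest probe set of Eif4e ended when preparation 1 or 2 was left out.

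The remaining lists held few calls. A count of 1 in lists of 50 or 64 genes is near the 1.22% called higher over all 14217 genes. The lists with more calls lie above the 1.58% called in either direction, but each rests on few genes. Each was also written with earlier results of these data known. In energy metabolism 2 of 38 genes rose: Prkaa1, a catalytic subunit of AMP-activated protein kinase, gave 3172, 2975 and 2837 without and 4493, 4368 and 4713 with Ang II (log2 0.59 ± 0.07; adjusted p = 0.00076), and the glycolytic regulator gene Pfkfb4 rose by 0.88 ± 0.17. Among 41 transporters Slc25a25, a calcium-regulated mitochondrial carrier of ATP-Mg, rose by 0.67 ± 0.08 beside Slc17a6. Of 64 potassium and calcium channels and pumps 1 rose, the plasma membrane calcium pump gene Atp2b1 (0.42 ± 0.08), which expels calcium from the cell. Dimmer probe sets of Atp2b1 were at 0.28 and -0.10 and did not pass. Of 50 genes of the actin cytoskeleton and of serum response factor 1 rose, the tubulin gene Tubb6 (0.47 ± 0.07), and Acta2 was at 0.40 ± 0.10 (adjusted p = 0.083). In the circadian clock Nfil3 rose and the repressor gene Bhlhe41 fell (-0.56 ± 0.12). Of 49 genes of cytokines and interferon response the interferon-induced GTPase gene Gbp2 rose (0.37 ± 0.07), and Irf1 (-0.48 ± 0.07) and Tnf (-0.34 ± 0.07) fell. Of 36 subunits of the respiratory chain and ATP synthase 0 passed limma's test, with 0 higher and 7 lower at an unadjusted p under 0.05, and the median of the list was -0.08. Its smallest p was that of Ndufv2, at -0.33 ± 0.09 (adjusted p = 0.14). The calls of Pfkfb4, Atp2b1, Bhlhe41, Gbp2, Irf1 and Tnf ended when preparation 2 was left out, and those of Gbp2 and Tnf also without preparation 1 and 3 respectively.

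Over all 27 lists, 922 genes were measured, of which 63 were higher and 8 lower, against 1.22% higher and 0.352% lower of all 14217 genes. The lists were written with earlier results of these data known, which favours called genes, so these totals are a description. A gene that stands in several lists is counted under each of them above and as 1 gene in these totals.

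**Figure D4:**
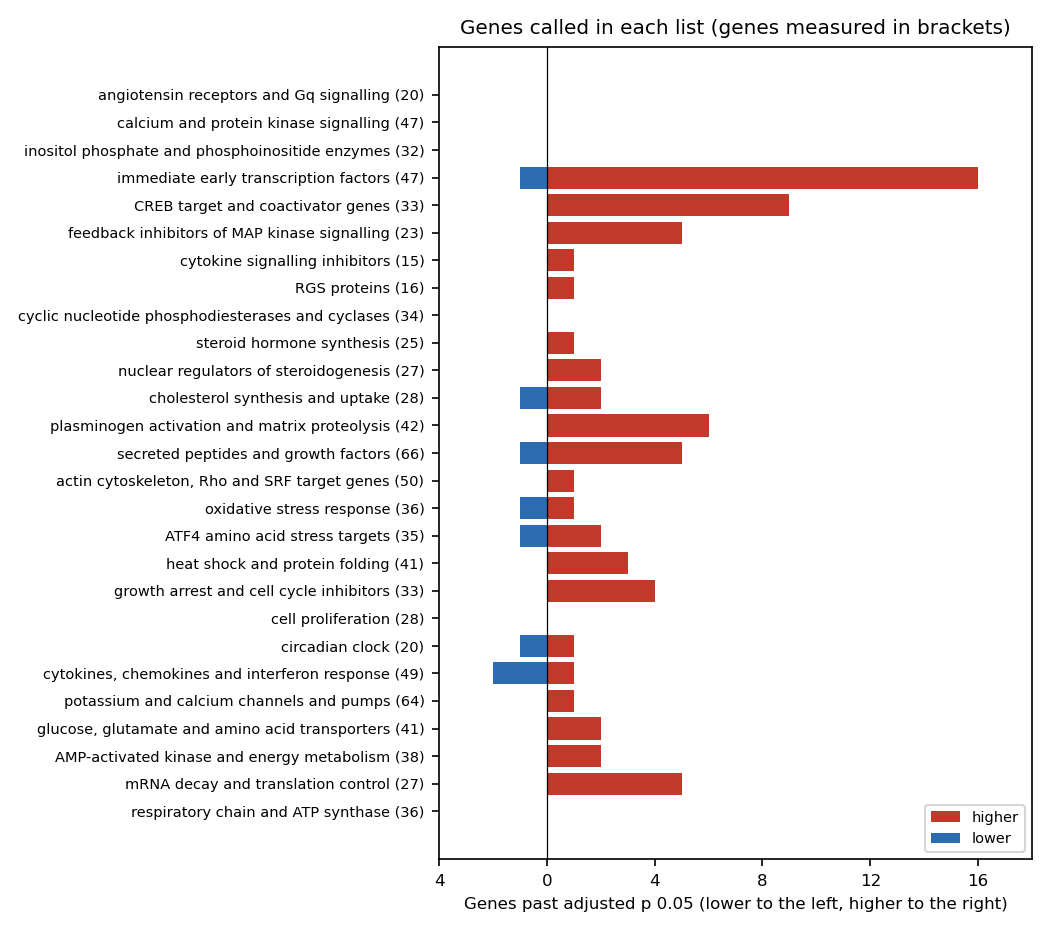
Number of measured genes of each of the 27 lists that passed limma's test, higher or lower after Ang II (horizontal axis, genes), with the number measured beside each list. Early transcription factors have the longest bar, with 16 higher and 1 lower of 47, and 6 lists have none.

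The decreases were fewer and smaller than the increases. Osgin1, Angptl4 and Klf10 are described above. Art1, an ADP-ribosyltransferase, gave 238, 382 and 276 in the control tubes and 105, 34.1 and 145 in the Ang II tubes (log2 -1.64 ± 0.36; adjusted p = 0.048). Its groups did not overlap, but the fall was much larger in preparation 2 than in the others. Art4, of the same enzyme family, fell by 1.65-fold (log2 -0.72 ± 0.13). Micall2, a protein of junctional actin and vesicle recycling, gave 356, 474 and 319 without and 168, 193 and 131 with Ang II (log2 -1.14 ± 0.19; adjusted p = 0.0063). Bcar1, the p130Cas scaffold of focal adhesions, gave 2031, 2074 and 2331 in the control tubes and 1292, 1385 and 1362 in the Ang II tubes (log2 -0.66 ± 0.08; adjusted p = 0.00046), and Ajuba, a LIM domain protein of cell junctions, fell by 1.49-fold (log2 -0.58 ± 0.10). Bles03 gave 1878, 2240.5 and 2139.9 without and 1103, 1375 and 1218 with Ang II (log2 -0.75 ± 0.08; adjusted p = 0.00014), with no overlap of the groups. Other decreases were those of Lrrc75a (-0.72 ± 0.14), Medag (-0.62 ± 0.10), which is known for promoting fat cell differentiation, and the zinc-finger genes Zbtb39 (-0.61 ± 0.13) and Zbtb47 (-0.60 ± 0.11). For Tpm1, a tropomyosin, 1 of 7 probe sets fell (-0.78 ± 0.10) while the brightest was at 0.14 and did not pass. Of these decreases, Art1, Art4, Micall2, Ajuba, Medag, Zbtb39 and Zbtb47 lost their calls when preparation 2 was left out, Lrrc75a and Art4 when preparation 1 was, and Zbtb39 when preparation 3 was. With the arrays scaled to a common median, the decreases of Lrrc75a, Art4, Ajuba, Zbtb39, Zbtb47, Bhlhe41, Lipa, Eif4ebp1, Irf1 and Tnf no longer passed, and 28 named genes in all, increases included, lost their calls.

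**Figure D5:**
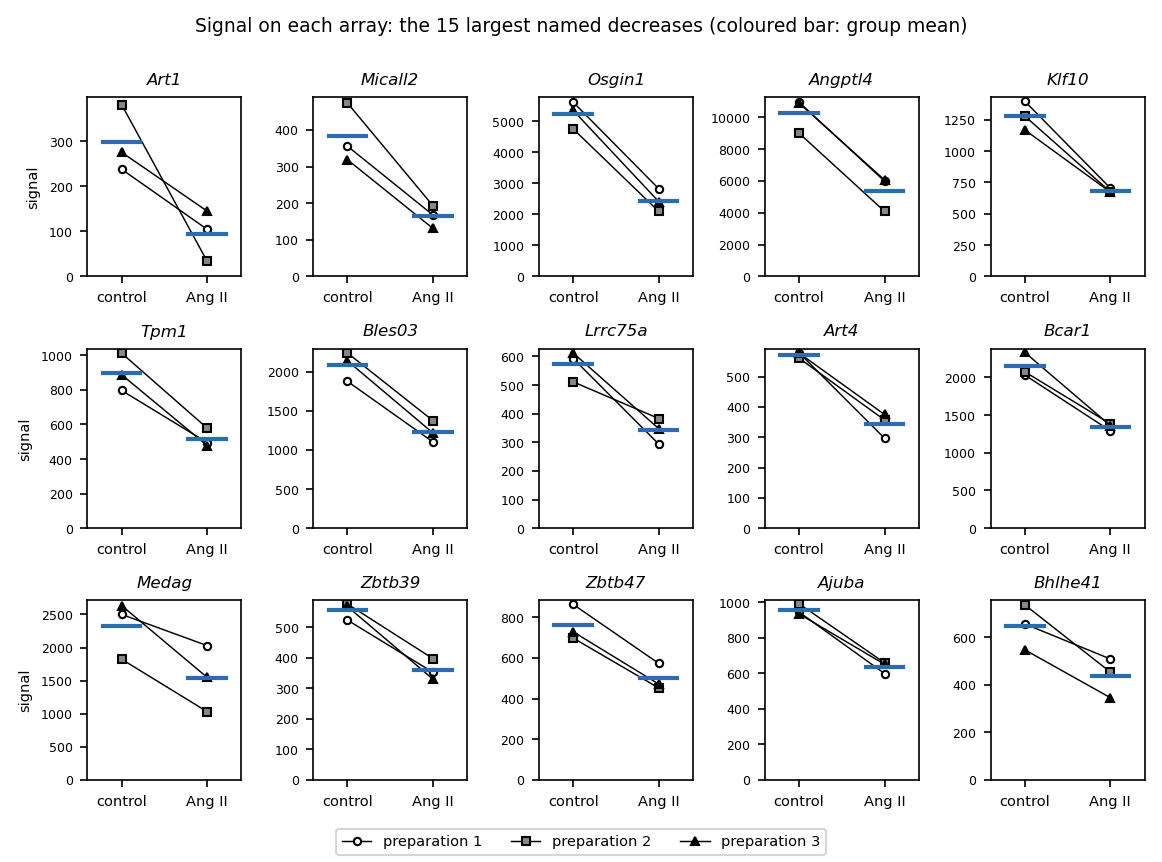
Signal on each array (vertical axes, linear, arbitrary units) in control and Ang II tubes for the 15 genes with the largest decreases, with a line joining the tubes of 1 preparation and a bar at each group mean. All lines fall, and the tubes of Osgin1, Angptl4 and Klf10 keep a wide gap between the groups.

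Several genes were read by more than 1 probe set. Of 115 called genes with several probe sets, 87 had all of them in 1 direction, and 20 had over 1 probe set called. Homer1, a scaffold of postsynaptic glutamate receptors, is known for a short activity-induced form beside constitutive long forms. The Homer1 probe set with the smallest p gave 265, 165 and 267 in the control tubes and 874, 689.8 and 811 in the Ang II tubes (log2 1.73 ± 0.14), and a brighter one gave 355, 371 and 355 without and 872, 913 and 959 with Ang II (log2 1.30 ± 0.11). The brightest probe set of Homer1 rose only by 0.45 ± 0.08, from 1050.2, 937 and 992 to 1470.4, 1264 and 1345. So Homer1 changed by unequal amounts at its probe sets, and the files do not pair these with transcript forms. For some genes every probe set rose. The examples here were chosen after their values were seen: the kinase gene Riok3 rose at 3 of 3 (0.70, 1.02 and 0.95), and the myosin phosphatase subunit gene Ppp1r12a at 4 of 4 (0.50 to 0.84), of which the brightest lost its call without preparation 2. Of 3 probe sets of Tet3, a methylcytosine dioxygenase gene, 2 rose (1.01 and 0.84).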

How the data were processed

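The deposited values were 1 linear signal intensity per probe set and array, scaled by the authors. Per the submitters' processing notes the software was GCOS, the array maker's. How background was removed and probes were summarised is not given in the sources used here. Detection calls were not used. No further scaling was applied.

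Of 31099 rows, 57 array controls were left out. Genes were named from the platform annotation, with symbols updated from RefSeq genes of GRCr8: Entrez identifiers named 20758 probe sets, accessions 2 and the annotation's symbols 66, while 436 with several symbols and 9780 with none were not named. All tests used log2(signal + 16), on which dim probe sets change less than their signals do. All 31042 probe sets were fitted with limma 3.58.1 in R 4.3.3 (lmFit, and eBayes with a trend), with the preparation as a fixed block. The fit had 2 residual and 11.7 prior degrees of freedom. P-values were adjusted by Benjamini-Hochberg over all probe sets, with a threshold of 0.05. The code was tested on simulated data.

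Each of 3 independent preparations gave 1 tube per group, per the series' design text, so the arrays are paired. Deviations from the group means correlated at 0.112, 0.0786 and 0.0251 within the preparations and at -0.0875 to -0.00261 between them. Errors are SE of the log2 fold change or SD of 3 signals, and the number of arrays limits the precision.

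Named genes were the 20 largest increases and 15 largest decreases among probe sets past the threshold with 1 symbol, the same direction in 3 preparations and a brighter group mean above the 40th percentile of signal. The smallest p among its probe sets chose the value of a gene. Set steroidogenic, receptor and early response genes were added, with up to 5 members of each list by smallest p. Lists used the brightest probe set of each gene. No probe set is named for Cyp11b2, Mc2r, Actb or Gapdh alone, so these were not analysed here. The lists, members and rules were chosen with earlier results of these data known. The alternatives left out the block, the trend or a preparation in turn, filtered dim probe sets, used a pseudocount of 1 or 64, scaled to a common median or by quantiles, used robust empirical Bayes or fitted all 9 arrays.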

Additional observations from a re-analysis of the deposited data

How the results depend on the processing

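No probe set called in both the reported fit and any of the 12 alternatives changed direction. The count of 339 was within 1.5 times under a filter on dim probe sets, either pseudocount, both scalings, robust empirical Bayes and 9 arrays (234 to 357). Without the replicate block it was 148, all of them among the 339, with 134 higher and 14 lower and 40 list genes in place of 71. Without a trend it was 0, with 0 higher, 0 lower and 0 list genes. The 72 decreases became 17 with arrays scaled to a common median and 46 with quantile normalization. Leaving out each preparation in turn gave 120 to 533 calls, 104 to 359 higher and 16 to 178 lower, and 34 to 78 list genes. The lowest of these 4 counts came without preparation 2. Without preparation 1 or 3 the estimated prior was infinite, so that all probe sets of like signal shared 1 spread. Without preparation 2 the prior had 7.97 degrees of freedom, so these counts do not compare the preparations alone. Of 97 named genes that passed, 35 lost the call only without a trend, 39 in 2 to 4 alternatives and 23 in 5 or more, Zbtb39, Zfp36, Mthfd2 and Tnf in 8 each. Of genes that had not passed, Star passed under robust empirical Bayes (adjusted p = 0.0403), Acta2 with a common median (0.0388), Wnt4 with quantiles (0.0362) and 9 arrays (0.0397), Mrap (0.000649) and Hmox1 (0.0459) without preparation 3, and Ndufv2 without preparation 1 (0.00905) or 3 (0.0215). Changes of sign were seen only for genes that had not passed: with a common median Dusp6 was at 0.042, Cyp11a1 at 0.1127, Cyp21a1 at 0.0305, Nr5a1 at 0.0478 and Agtr1b at 0.0679; with quantiles Rgs4 was at -0.0157 and Agtr1a at -0.0042. With each preparation left out in turn, Agtr1a ranged from -0.0207 to 0.0805, Rgs4 from -0.0176 to 0.1001, Hsd3b1 from -0.0681 to 0.0425, Cyp11b1 from -0.0919 to 0.2105 and Cyp11a1 from -0.0475 to 0.0317. The cause of these shifts was not tested. Signals near the pseudocount, such as those of Mmp10 and Nmu in control tubes, limit what can be said of fold size.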
